A study of Homo sapiens with 3 samples.

Results

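The subject is the baseline expression profile of HSC-3, an established line of squamous carcinoma from the human tongue, left untransfected, as read on 1 of the 3 one-colour oligonucleotide arrays of the series. The array was chosen by its sample title, which names the line alone and carries no plasmid, and the members are all gene probes on it that were not marked as faulty. The other arrays held cells given a plasmid for green fluorescent protein (GFP) or for DKK3 with an HA tag, and no array is set against another here. All cultures were maintained in DMEM with 10% serum. The labels time the RNA extraction at 24 hours from transfection and do not say what that means for the culture without a plasmid. The group is 1 array of 1 culture, so there is no spread between samples, no test and no p-value, and having a single array bounds how precise any value can be. The treatment label, worded alike for all 3 samples, also mentions cultures of C2C12, a mouse muscle line, while title, description and source name the human tongue line.

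Stratified squamous epithelium, which lines the tongue, has a basal layer that divides and upper layers that stop dividing and harden. Basal cells make the keratin pair KRT5 and KRT14, hold to the basement membrane through integrins and laminins, and depend on the transcription factor TP63. Upper layers switch to other keratins and then to the proteins of the cornified envelope. Carcinoma lines of this tissue are known for strong signalling through growth factor receptors such as EGFR and for secreting proteases that cut the matrix.

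Of 24457 gene probes, 18002 (73.6%) were detected, meaning that the spot's median intensity exceeded the mean plus 2 SD of the blank spots, a limit of 40.8 intensity units. The blanks had a mean of 36.3 and an SD of 2.26 over 2678 spots, and 5.27% of them also exceeded the limit. None of 96 spots of the maker's negative controls did. Spots of 2 positive controls, each printed 24 times, varied by 5.97% and 9.57% (coefficient of variation) across the array, and the detected share of gene probes lay between 71.3% and 76.7% in its 24 blocks. 

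Detection by this limit was permissive. Probes for olfactory receptors, a gene family used in the nose, exceeded it in 127 of 376 cases (33.8%), with a median of 38.4 and a 95th percentile of 75.5. The brightest of them, OR1J1 and OR10H4, read 765 and 402. The second mark used below, the olfactory limit, is this 95th percentile, and 10614 gene probes exceeded it. Detected probes were also put in 3 bands by rank: bright for the top 10%, from an intensity of 771, moderate from the median of 96.3 up to there, and dim below the median. Of the 9001 dim probes 7388 (82.1%) did not exceed the olfactory limit, and a dim call is given below with its side of that limit where it matters.

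**Figure D1:**
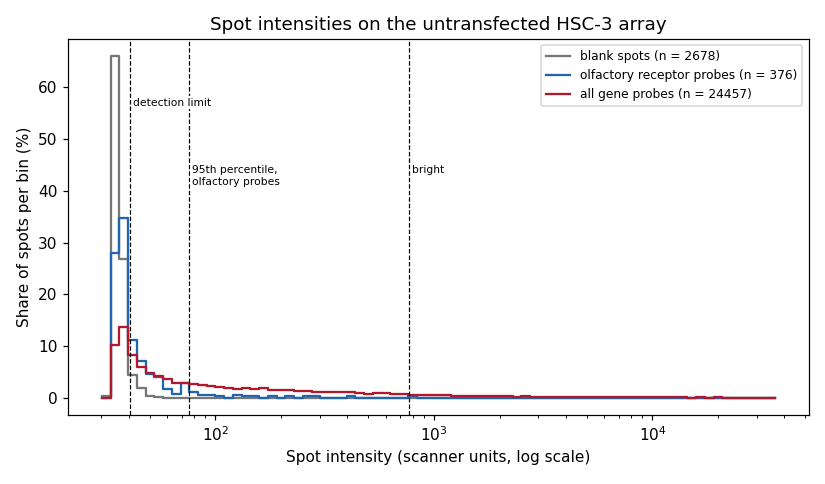
Share of spots (y axis, percent per bin) by spot intensity (x axis, scanner units, log scale) for blank spots, olfactory receptor probes and all gene probes of the untransfected array, with the detection limit of 40.8, the olfactory limit of 75.5 and the start of the bright band at 771 as dashed lines. The blanks and most olfactory probes sit at the left, and the gene probes spread to 36592.

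The probes with a name gave 17557 genes, each taken at its brightest probe. By that rule 13651 genes (77.8%) were detected, 8575 (48.8%) exceeded the olfactory limit, 1368 (7.79%) were bright and 3906 (22.2%) were not detected. The median gene read 72.8. Brightness depends on the probe as well as on the RNA, so an intensity places a spot within this array, and the order of 2 genes in it is not read as an order of their RNA. Genes with over 1 probe show how far the probe matters. Of 2559 such genes, 1589 (62.1%) had all probes detected, 388 (15.2%) had none and in 582 (22.7%) the probes disagreed. Where all were detected, the brightest and dimmest probe differed by a median of 1.476-fold, and by over 4-fold in 12.1%. Among 228 genes with a bright probe and another one, all probes were bright in 112, and in 39 the dimmest did not exceed the olfactory limit.

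Ribosomal protein genes were frequent among the brightest named genes. Of the 25 brightest genes 15 were ribosomal protein genes or their pseudogenes, and of the 100 brightest 47 were. The other 10 were ACTG1 (36592) and ACTB (22284), the cytoplasmic actins; MT2A (34418), a metal-binding metallothionein; S100A2 (27654), a calcium-binding protein of basal squamous cells; the actin-binding thymosin TMSB10 (26096); the nucleolar protein NPM1 (26094); the glycolytic enzymes LDHA (23487) and GAPDH (22728); the ferritin light chain FTL (23425); and TPT1 (23308). GAPDH shows the limit of single probes, since its other probe read 92.6. Among the next genes were ENO1 (20743), another glycolytic enzyme, the ferritin heavy chain FTH1 (20275), the chaperone HSPA8 (17729.7), KRT5 (16548), the membrane-binding annexin ANXA2 (16404), KRT18 (14052) and F3 (12536), the tissue factor that starts blood clotting. The 100 brightest gene probes held 23.9% of the blank-corrected signal of all gene probes, and the 1000 brightest held 66.4%.

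Gene families taken whole from the symbols, a choice made after the values were seen, were spread widely. Of 70 ribosomal protein genes 56 were bright (80%, against 7.79% of all genes), of 39 proteasome subunits 32 were (82.1%), and of 36 subunits of respiratory complex I 28 were (77.8%). Of 11 annexins, 6 were bright (54.5%), among them ANXA1 (10125) and ANXA5 (5574), and of 17 S100 proteins 7 were (41.2%), among them S100A6 (19719), S100A10 (12359) and S100A11 (10552). Several other families gave few bright spots or none, against a bright share of 7.79% over all genes. None of 38 HOX genes, 19 SOX genes, 42 forkhead genes, 90 potassium channels or 23 taste receptors was bright, and of 459 zinc finger genes named ZNF 4 were (0.871%). With a share of 7.79% over all genes, the lack of a bright gene in the smaller families says little. Of 62 keratin-associated proteins 1 was bright (1.61%), KRTAP10-10 at 847, and 17 exceeded the olfactory limit (27.4%, against 48.8% of all genes). Of 50 protocadherins 13 (26%) and of 22 beta defensins 5 (22.7%) were detected, lower shares than the 35.4% of the 356 olfactory receptor genes and the 77.8% of all genes.

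A sequence feature that the choice of this array did not use went along with brightness. RefSeq promoter windows (250 bases before to 50 after the start, GRCh38.p14) were matched by symbol for 13911 of 17031 protein-coding genes with a probe (81.7%). CpG, a C followed by a G, is depleted from most of the human genome and kept in the CpG islands at the starts of widely used genes. Genes were ordered by CpG observed over expected and split into 5 equal classes, and 56.0% were detected in the lowest class, then 72.4%, 86.3%, 88.0% and 90.4%. The share of bright genes went from 1.72% to 12.7%, and the share above the olfactory limit from 20.7% to 68.2%. The median ratio was 0.45 for genes not detected, 0.74 for dim, 0.85 for moderate and 0.87 for bright genes, against 0.78 for all. These are descriptions across genes, which are not independent replicates.

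**Figure D2:**
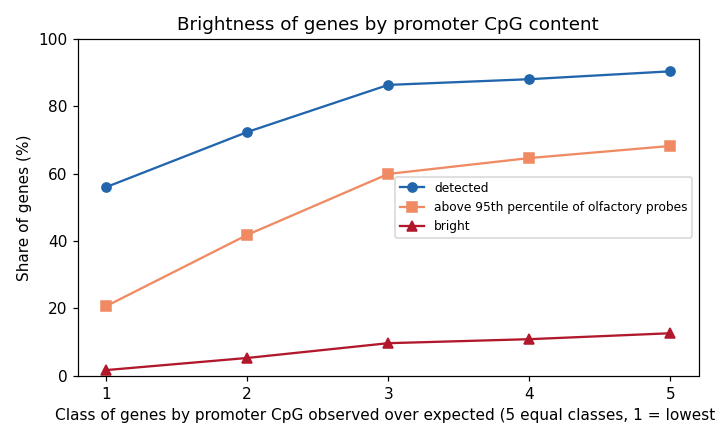
Share of genes (y axis, percent) that were detected, above the olfactory limit or bright, by class of promoter CpG observed over expected (x axis, 5 equal classes, 1 is the lowest). The detected share goes from 56.0% to 90.4% and the bright share from 1.72% to 12.7%.

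Bright genes did not all share the CpG-rich kind of promoter, and 5 windows show both kinds. The lists of keratins and late differentiation genes had median ratios of CpG observed over expected of 0.17 and 0.16, against 0.78 for all genes with a window. Each line gives the 250 bases before the start site, 5′ to 3′ on the gene's strand, from RefSeq (GRCh38.p14), with CpG in capitals. ACTG1 (chr17:81512800-81513049, minus strand) and F3 (chr1:94541760-94542009, minus strand) are bright genes with 43 and 34 CpG. KRT5 (chr12:52520395-52520644, minus strand) and S100A2 (chr1:153565845-153566094, minus strand) are bright with 6 and 4. KRT24 (chr17:40703753-40704002, minus strand), a keratin that was not detected, has 2.
ACTG1: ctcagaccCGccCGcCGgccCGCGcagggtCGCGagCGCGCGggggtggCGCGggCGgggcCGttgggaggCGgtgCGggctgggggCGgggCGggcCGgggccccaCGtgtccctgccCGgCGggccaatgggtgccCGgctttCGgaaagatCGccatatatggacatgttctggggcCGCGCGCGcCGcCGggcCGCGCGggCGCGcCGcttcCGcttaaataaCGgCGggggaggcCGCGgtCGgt
F3: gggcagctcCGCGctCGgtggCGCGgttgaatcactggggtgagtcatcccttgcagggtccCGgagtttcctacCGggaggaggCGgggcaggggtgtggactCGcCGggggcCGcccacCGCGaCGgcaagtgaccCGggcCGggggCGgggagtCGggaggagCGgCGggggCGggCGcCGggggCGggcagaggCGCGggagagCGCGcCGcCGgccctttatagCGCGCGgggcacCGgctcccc
KRT5: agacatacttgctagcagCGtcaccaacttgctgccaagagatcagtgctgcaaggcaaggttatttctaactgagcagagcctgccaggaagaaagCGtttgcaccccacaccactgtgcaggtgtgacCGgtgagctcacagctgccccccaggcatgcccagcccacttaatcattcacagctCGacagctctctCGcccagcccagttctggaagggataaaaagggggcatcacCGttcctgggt
S100A2: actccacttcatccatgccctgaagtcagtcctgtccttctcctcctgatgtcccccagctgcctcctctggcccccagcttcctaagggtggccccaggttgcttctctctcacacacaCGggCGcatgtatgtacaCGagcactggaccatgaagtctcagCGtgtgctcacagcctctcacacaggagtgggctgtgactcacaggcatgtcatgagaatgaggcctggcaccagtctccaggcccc
KRT24: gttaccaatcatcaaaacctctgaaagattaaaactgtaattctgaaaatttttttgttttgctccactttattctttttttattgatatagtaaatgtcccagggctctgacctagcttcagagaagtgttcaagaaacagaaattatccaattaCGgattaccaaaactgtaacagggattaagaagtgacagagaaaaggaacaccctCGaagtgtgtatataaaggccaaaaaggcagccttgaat

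KRT5 and S100A2 fall in the lowest class of CpG content, KRT24 in the next, F3 in class 4 and ACTG1 in the highest. The letters TATAAA, searched on the gene's strand in the 45 to 16 bases before the start, were found in 3.61% of all windows, in 5.55% for genes not detected, 4.20% for dim, 1.90% for moderate and 3.48% for bright genes. With both strands and the whole window they were found in 9.05%. Of the 5 genes shown, KRT24 holds them, 28 bases before the start. The letters TGANTCA, the core bound by AP-1 factors and read the same on both strands, were in 5.67% of windows, in 8.07% for genes not detected and 5.98% for bright genes. They begin 52 bases before the start of S100A2 and 223 and 210 bases before that of F3. Of the keratins 15 have a window, 6 with TATAAA near the start and 0 with TGANTCA, and of the late differentiation genes 29 have one, 12 with TATAAA and 13 with TGANTCA. A match describes the letters in the window and nothing more.

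Markers of squamous keratinocytes, the labelled lineage, were detected throughout. All 19 squamous keratinocyte markers with a named probe were detected (77.8% of all genes were), 17 of them above the olfactory limit (89.5%, against 48.8%) and 9 bright (47.4%, against 7.79%). Their median was 648, against 72.8 over all genes. S100A2 (27654), KRT5 (16548), SFN (11089.7), a cell cycle checkpoint protein of squamous cells, and KRT14 (8103) were the brightest. PERP (1014), a desmosomal protein, was bright too, and TRIM29 (385) and PKP1 (131) were moderate. DSC3 (54.3), a desmosomal cadherin, and FAT2 (43.7) were the only 2 below the olfactory limit. Lists of other cell types had medians from 37.5 to 52.5 and 1 to 5 members above the olfactory limit. The summed blank-corrected intensity was 77847 for the squamous list, 16888 for simple or glandular epithelium, of which KRT18 (14052) and KRT19 (2620.4) made up nearly the whole, and between 196 and 1150 for the others. In the glandular list VIL1 (101), the villin of gut cells, and MUC5B (98.3, its other probe not detected at 37.9) were moderate, FOXA2 (71.8), TFF3 (54.5), KRT20 (50.5), CFTR (49.9), CLDN18 (42.9) and SPDEF (42.2) dim, and MUC2, TFF1 and CDH17 not detected.

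Of 13 fibroblast markers 4 were detected (30.8%, against 77.8% of all genes), among them PDGFRB (74.3), FAP (61.2) and FBN1 (44.3), and COL1A1, COL1A2, COL3A1, LUM, THY1, PDGFRA, COL6A3, PRRX1 and POSTN were not. DCN, a matrix proteoglycan, read 168 on 1 probe and 36.2, not detected, on the other. Of 11 endothelial markers 7 were detected (63.6%), all dim but ESAM (206), with KDR (74.1), CLDN5 (65.8), SOX18 (55.6), ERG (54.7), TIE1 (46.6) and VWF (45.04) under the olfactory limit, and CDH5, TEK, EMCN and ROBO4 were not. Of 13 leukocyte markers 6 were (46.2%), and the pan-leukocyte PTPRC and the lineage genes CD2, CD3D, MS4A1, SPI1, ITGAM and LCP2 were not, while CD79A (323), CD68 (277) and CORO1A (146) were moderate and CD14 (74.1), CSF1R (48.0) and CD3E (45.3, its other probe not detected) dim.

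For the mouse muscle line that one label mentions, 11 of 14 skeletal muscle markers were detected (78.6%, near the 77.8% of all genes), 2 of them above the olfactory limit (14.3%, against 48.8%). These are human genes, and how their probes read mouse RNA was not tested, so the counts do not decide what the label means. The myogenic factors MYOD1 (41.8) and MYOG (44.1) lay just above the detection limit and MYF5 was not detected, while the troponin gene TNNT1 was bright at 999 and the filament gene DES read 102. CKM (68.8), CHRNA1 (54.8), MB (51.7, its dimmest probe not detected), ACTA1 (49.98, its other probe not detected), MYH3 (46.7), MYF6 (46.2) and TNNT3 (43.2) were dim, and MYH8 and TNNI1 not detected. Melanocyte markers TYR, TYRP1, DCT and MLANA were not detected, PMEL read 45.5, MITF 86.7 and SOX10, a neural crest factor, 169. Of 10 neural markers 8 were detected (80%, near the share of all genes), SOX10 and NEFM (84.3) above the olfactory limit, GAD1 (61.2), NEFL (51.2), SYP (49.5), MAP2 (48.1), SYT1 (43.8) and GFAP (43.0) below it, and OLIG2 and SNAP25 were not.

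**Figure D3:**
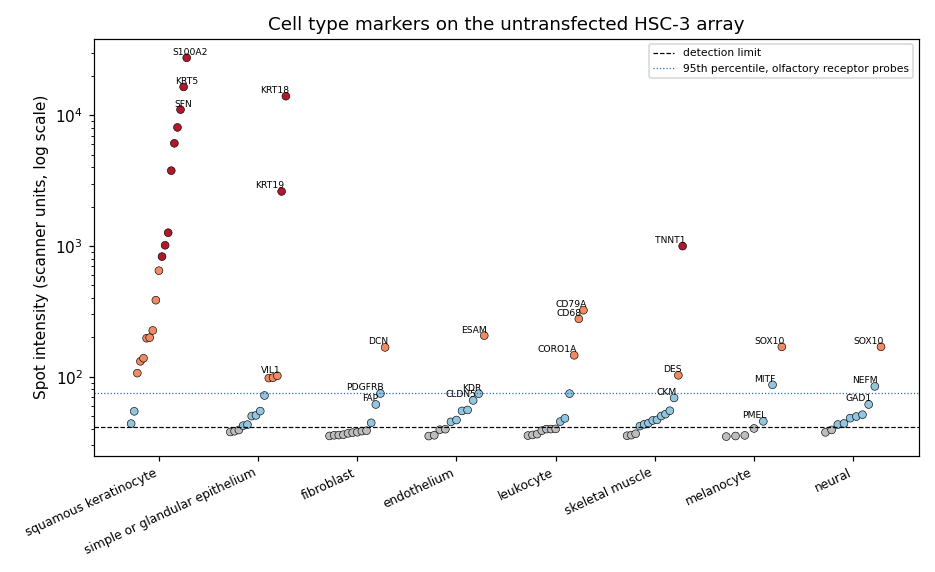
Spot intensity (y axis, scanner units, log scale) of the marker genes of 8 cell types (x axis), each point a gene at its brightest probe on the untransfected array, dark red for bright, orange for moderate, blue for dim and grey for not detected. The squamous markers reach 27654 and all 19 lie above the dashed detection limit of 40.8, while most markers of the other types lie under the dotted olfactory limit of 75.5.

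Keratins, the filament proteins of epithelial cells, ran from the bright band down to the blanks. Of 32 with a probe 29 were detected (90.6%, against 77.8% of all genes), 16 exceeded the olfactory limit and 9 were bright (28.1%, against 7.79%). The bright ones were the basal pair KRT5 (16548) and KRT14 (8103), the basal KRT15 (958), KRT17 (3780.5) and KRT6A (6123) of wounded and growing epithelium, KRT6C (787), the simple epithelial KRT18 (14052) and KRT19 (2620.4), and KRT12 (1319), known from the cornea. KRT3 (289.9), the corneal partner of KRT12, KRT80 (200.1, its other probe not detected), KRT16 (197), KRT81 (191), KRT7 (97.5) and KRT86 (96.4; other probe 61.4) were moderate. The dim members included KRT4 (74.6) and KRT13 (54.8) of the tongue's upper layers, KRT1 (41.8), KRT2 (48.0) and KRT10 (71.5) of skin, KRT76 (74.1) and KRT78 (48.4, another probe not detected). KRT85, KRT24 and KRT23 were not detected. The other probe of KRT15 was moderate at 693. KRT6A, KRT6B and KRT6C are near-identical genes, and probe sequences were not used here, so their probes may read one another: KRT6B was dim at 70.5.

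The listed genes of late differentiation gave no bright spot, against 7.79% of all genes that were bright. Of 38, 25 were detected (65.8%, against 77.8%), 12 exceeded the olfactory limit (31.6%, against 48.8%) and the median was 52.2. The protease KLK5 (559.8), the small proline-rich envelope proteins SPRR1A (393), SPRR2D (263) and SPRR2A (136), the envelope plakin PPL (184) and CRNN (119.9) were moderate. IVL (90.6), involucrin of the envelope, SPRR1B (87.3), CDSN (86.4), corneodesmosin, and the alarmins S100A9 (95.2) and S100A8 (57.6) were dim. Filaggrin genes FLG and FLG2, the loricrin gene LOR, SPRR3, EVPL, DSG1, DSC1, RPTN, HRNR, TGM5 and KLK13 were not detected.

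**Figure D4:**
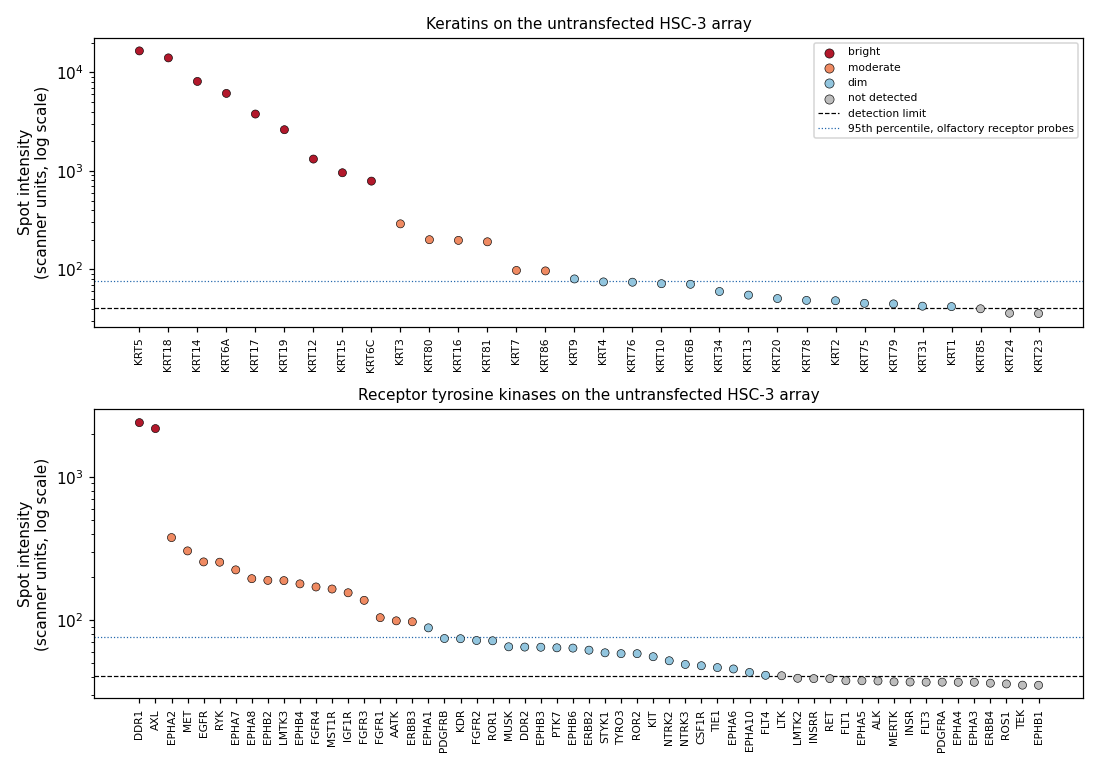
Spot intensity (y axes, scanner units, log scale) of each keratin gene (upper panel) and each receptor tyrosine kinase gene (lower panel) at its brightest probe, coloured by band, with the detection limit dashed and the olfactory limit dotted. 9 keratins and 2 receptor tyrosine kinases are bright.

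Transcription factors of squamous epithelium were detected in 23 of 29 cases (79.3%), near the 77.8% of all genes, and 14 exceeded the olfactory limit (48.3%, against 48.8%). KLF5 (824), a zinc finger factor of proliferating epithelium, was the 1 bright member. RUNX1 (361), PITX1 (326), a homeobox factor of the oral region, OVOL2 (234.99), an epithelial repressor of mesenchymal genes, EHF (133), BARX2 (128), TFAP2C (122), TP63 (106), the basal cell regulator, and BNC1 (101) were moderate. TFAP2A (94.99), PAX9 (86.4), GRHL2 (86.2), KLF4 (76.4), SOX2 (52.4) and TFAP2B (40.8, another probe not detected) were dim. GATA3, TBX2, DLX5, ELF5, GRHL3 and TRPS1 were not detected. The other probe of RUNX1 was dim at 76.1. SOX15, a keratinocyte factor outside the list and named after its value was seen, read 298.

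Among factors of epithelial to mesenchymal transition, which repress epithelial genes, SNAI2 was bright at 2004 and FOXC2 moderate at 481. TWIST1 (89.7), GSC (53.1), ZEB2 (48.8) and SNAI3 (40.9) were dim, and SNAI1, ZEB1, TCF4 and PRRX1 were not detected. In all 6 of 10 were detected (60%, against 77.8%).

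Factors that define other lineages were detected in 37 of 45 cases (82.2%), but 11 exceeded the olfactory limit (24.4%, against 48.8%) and none was bright. The blood stem cell factor TAL1 read 701 on 1 probe and 35.1, not detected, on the other. GATA2 (184), SOX10 (169), GATA6 (133), the eye and brain factor PAX6 (128), SOX9 (109) and FOXA1 (109) were moderate. PAX8 (85.2) and NKX6-1 (80.9) were dim and above the olfactory limit, and PAX2 (60.9), PAX5 (55.2) and GATA1 (45.7) were dim with another probe not detected. SPI1 and IKZF1 of blood, OLIG1, OLIG2 and POU3F2 of brain, MYF5 of muscle, NKX2-5 of heart and HNF4G of gut were not detected.

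The AP-1, ATF and MAF family of leucine zipper factors was detected in 26 of 28 cases (92.9%, against 77.8%), with 14 above the olfactory limit (50%, against 48.8%). ATF4 (1879.8; other probe 85.9), which directs the amino acid response, and NFE2L2 (1093), the factor of the oxidative stress response, were bright. JUN (399), BACH1 (327), FOSL1 (248), CREB1 (214) and JUNB (111) were moderate. So were NFE2L1 (242; other probe 63.6), ATF6 (232) of the unfolded protein response, CREM (136) and ATF2 (118). FOS (62.1), FOSB (56.2), FOSL2 (55.5) and ATF3 (48.3) were dim, and BACH2 and BATF2 were not detected.

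In the MYC, E2F and STAT families 24 of 26 genes were detected (92.3%, against 77.8%) and 19 exceeded the olfactory limit (73.1%, against 48.8%). TFDP1 (1153), the partner of E2F factors, and MAX (811), the partner of MYC, were bright. MYC read 499 on 1 probe and 37.2, not detected, on the other. STAT3 (301) and STAT2 (297) of cytokine signalling, MLX (296), TFDP2 (215), E2F6 (152), STAT5A (117) and E2F4 (233) were moderate, E2F1 (79.8) and MYCN (44.1) were dim, and STAT4 and MXD4 were not detected.

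Nuclear receptors, transcription factors switched by hormones and lipids, had no bright member. Of 45, 31 were detected (68.9%, against 77.8%) and 17 exceeded the olfactory limit (37.8%, against 48.8%). Moderate spots came from ESRRB (472), NR2F2 (454), NR2F6 (344; other probe 53.5), the glucocorticoid receptor NR3C1 (318), the liver X receptor NR1H2 (275), ESRRA (266), the retinoid receptors RARA (235.3), RARG (109.9), RXRA (197) and RXRB (191), NR2C1 (172) and PPARA (153). The vitamin D receptor VDR was dim at 76.3, and PPARG, the fat cell regulator, at 40.9. NR5A1, the steroid tissue regulator, read 49.0 with another probe not detected. The oestrogen receptors ESR1 and ESR2, the progesterone receptor PGR, the mineralocorticoid receptor NR3C2, RARB, NR5A2 and NR4A2 were not detected.

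Receptor tyrosine kinases, the cell surface receptors for most growth factors, were detected in 40 of 57 cases (70.2%, against 77.8%), and 19 exceeded the olfactory limit (33.3%, against 48.8%). The collagen receptor DDR1 (2394; other probe 118) and the GAS6 receptor AXL (2175) were bright. The ephrin receptor EPHA2 (377), the HGF receptor MET (304), EGFR (255), RYK (254), EPHB2 (189), EPHB4 (179), MST1R (165), IGF1R (155), EPHA8 (195), LMTK3 (189), FGFR4 (170.3), FGFR3 (137) and FGFR1 (104) were moderate. Of EGFR's partners, ERBB3 (97.3) was moderate, ERBB2 (61.6) dim and ERBB4 not detected. EPHA7 read 224 on 1 probe and 35.2, not detected, on the other. Of receptors known from vessels, stroma, blood and nerve, PDGFRB (74.3), KDR (74.1), KIT (55.4), NTRK2 (52.0), NTRK3 (49.0), CSF1R (48.0), TIE1 (46.6) and FLT4 (41.1) were dim and below the olfactory limit, and FLT1, TEK, PDGFRA, FLT3, RET and ALK were not detected. INSR, the insulin receptor, was not detected.

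Chemokine receptors, which guide moving leukocytes, had a median of 39.2, against 72.8 over all genes. Of 19, 9 were detected (47.4%, against 77.8%), 1 exceeded the olfactory limit and none was moderate or bright. The member above it was ACKR3, a scavenger of CXCL12, at 94.1. Below it CCRL2 (60.4), CCR10 (59.1), CXCR3 (57.96), XCR1 (51.2), CCR7 (45.4), ACKR1 (43.3), CCR4 (41.4) and CXCR6 (41.0) were dim, CXCR3 and XCR1 with another probe not detected. CXCR4, CXCR2, CXCR5, CCR1, CCR3, CCR6, CCR8, CCR9, CX3CR1 and CMKLR1 were not detected.

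Receptors coupled to G proteins for lipids, proteases, nucleotides and amines were detected in 41 of 57 cases (71.9%, against 77.8%) with 17 above the olfactory limit (29.8%, against 48.8%). Moderate members were the adenosine receptor ADORA2B (756; other probe 66.2), the protease-activated receptors F2RL1 (616) and F2R (313), GPRC5A (510), the R-spondin receptor LGR4 (456), the lysophosphatidic acid receptors LPAR1 (384) and LPAR3 (333), the nucleotide receptor P2RY11 (175), and the bradykinin receptors BDKRB1 (231) and BDKRB2 (208). The adrenergic receptor ADRA2A (124) was moderate as well. DRD1 (52.1), HTR1A (50.5) and ADRA1A (43.7) were dim, and CHRM1, CHRM2, CHRM3, HTR2A, HTR2B, HRH2, OXTR and ADRB1 were not detected. S1PR3 (73.3), PTGER3 (43.3), DRD2 (46.3) and ADRA1A were dim with another probe not detected.

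Cytokine receptors were detected in 34 of 48 cases (70.8%, against 77.8% of all genes) with 19 above the olfactory limit (39.6%, against 48.8%), and none was bright. Moderate members were the interferon gamma receptor chains IFNGR2 (468) and IFNGR1 (426), IFNAR2 (170.5) of the type I interferon receptor, IL13RA1 (266), IL1RAP (259), the decoy IL1R2 (217), IL6R (255) and its signalling partner IL6ST (200.2), IL10RB (159), OSMR (130.5), IL7R (146) and IL20RB (122). The other probe of IL1RAP was dim at 85.4. IL1R1, the signalling receptor for IL1, lay just above the limit at 41.0. IL1RL1, the receptor for IL33, read 45.8 with another probe not detected. Chains shared by several receptors were dim in LIFR (69.0), CSF2RB (62.0) and IL2RG (44.8), as were IFNAR1 (47.9), IL22RA1 (73.1), IL9R (49.0) and IL12RB1 (44.6). IL2RA, IL2RB, IL21R, IL12RB2, IL20RA, IL3RA, IL5RA, CSF2RA, LEPR, GHR and PRLR were not detected.

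The TNF receptor family was detected in 23 of 28 cases (82.1%) with 15 above the olfactory limit (53.6%), both near the shares of all genes (77.8% and 48.8%). TNFRSF12A, the receptor for TWEAK, was bright on both probes (3394 and 1528), and the TNF receptor TNFRSF1A on 1 of 2 (857 and 50.2). The death receptors TNFRSF10B (402), FAS (272) and TNFRSF10A (174), the lymphotoxin receptor LTBR (358), and TNFRSF18 (182), TNFRSF25 (142), CD27 (119) and CD40 (104), known from lymphocytes, were moderate. TNFRSF8, TNFRSF17, TNFRSF11A, TNFRSF11B and EDAR were not detected.

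Of 15 receptors for TGF-beta and BMP 12 were detected (80%, near the 77.8% of all genes) and none was bright, against 7.79% of all genes. BMPR2 (198), TGFBR2 (172), ENG (134) and ACVR1 (109.7) were moderate, ACVR1B (78.6), BMPR1A (75.9), ACVR2B (68.4), TGFBR1 (60.6), ACVRL1 (58.4), ACVR2A (50.3), TGFBR3 (46.8) and BAMBI (41.5, another probe not detected) dim, and AMHR2, ACVR1C and BMPR1B not detected. Toll-like receptors, which sense microbes, were detected with their partners in 6 of 11 cases (54.5%, against 77.8%). LY96, a co-receptor for lipopolysaccharide, read 278, TLR2 92.5, CD14 74.1, TLR3 71.7, TLR6 51.3 and TLR8 48.7, the last with a probe not detected, while TLR1, TLR5, TLR7, TLR9 and TLR10 were not detected. All 10 Notch ligands and receptors were detected, against 77.8% of all genes, but 4 exceeded the olfactory limit (40%, against 48.8%) and none was bright. They ran from NOTCH4 (273), JAG2 (242), DLL1 (191) and JAG1 (156) in the moderate band to NOTCH1 (56.4, its dimmest probe not detected), NOTCH2 (67.9), NOTCH3 (43.2), DLL3 (65.3), DLL4 (42.8) and DLK1 (75.4, its dimmest probe not detected) in the dim one.

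Surface antigens known from carcinoma held the largest share of bright genes among the 31 lists. The lists were chosen with earlier results of these data known, so this order is a description only. Of 48 with a probe, 41 were detected (85.4%, against 77.8%), 34 exceeded the olfactory limit (70.8%, against 48.8%) and 15 were bright (31.2%, against 7.79%). F3 (12536), the tetraspanins CD63 (8546), CD9 (1584), CD81 (1654) and CD82 (952), the complement inhibitor CD59 (3763), NT5E (3300.2), which makes adenosine, the glucose transporter SLC2A1 (2790.3), the transferrin receptor TFRC (2517), the adhesion protein EPCAM (2324), the amino acid transporter chains SLC3A2 (2106) and SLC7A5 (1676), and SDC1 (1709.5) were bright on their only probe or on all of them. CAV1 of caveolae read 10205 on 1 probe and 61.8 on the other, and ALCAM read 1413 on its brightest probe and 36.7, not detected, on its dimmest.

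CD44 (482), CD46 (404), CD55 (352), PDPN (238), PLAUR (199), the receptor for urokinase, and NECTIN4 (144) were moderate. The immune checkpoint ligands CD274 (86.0) and PDCD1LG2 (79.5) and CD276 (91.3) were dim though above the olfactory limit. The other probe of CD274 lay below that limit, at 53.1. The glandular antigens CEACAM5 and MUC13, the stem cell antigen PROM1, and GPC3, VTCN1, VCAM1 and THY1 were not detected. MSLN (47.3), CEACAM6 (51.2), FOLR1 (40.9) and MUC4 (42.4) were dim and below the olfactory limit.

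**Figure D5:**
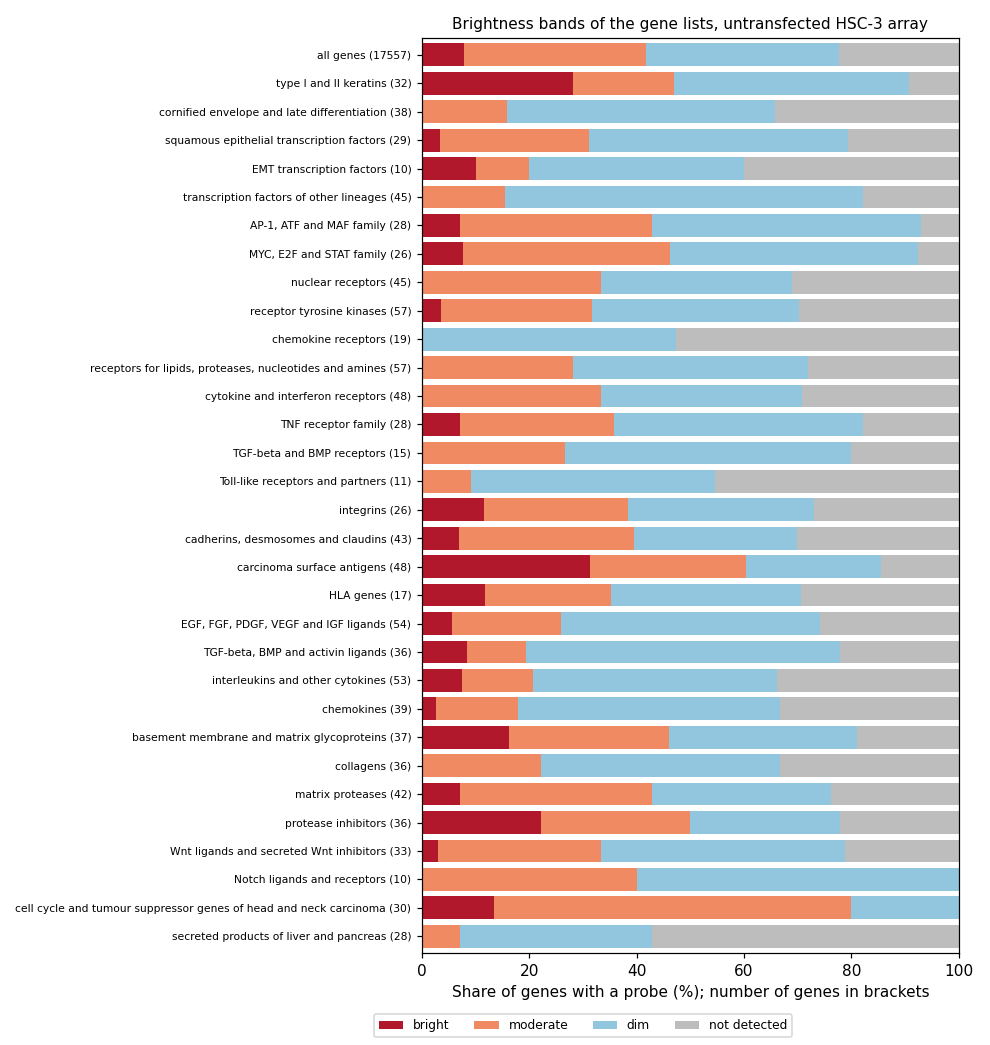
Share of genes with a probe (x axis, percent) in the bright, moderate, dim and not detected bands for all genes and for each of the 31 lists (y axis, number of genes in brackets) on the untransfected array. The carcinoma surface antigens (31.2%) and the keratins (28.1%) have the largest bright shares, against 7.79% of all genes. The lists were chosen with earlier results of these data known.

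Integrins, the receptors that hold cells to the matrix, were detected in 19 of 26 cases (73.1%, near the 77.8% of all genes), and 3 were bright (11.5%, against 7.79%). ITGB1 (4061), the shared beta chain, ITGA6 (1266; other probe 572), the laminin-binding alpha chain of basal cells, and ITGAE (1254), known from lymphocytes within epithelium, were bright. ITGA2 (607), ITGA5 (322), ITGAV (319), ITGB2 (284), ITGB5 (151), the hemidesmosomal ITGB4 (138) and ITGAX (122) were moderate. ITGA3 (71.6), ITGB6 (50.5) and ITGB7 (81.0, another probe not detected) were dim. The platelet chains ITGA2B and ITGB3, the myeloid ITGAM, and ITGA7, ITGA8, ITGA10 and ITGB8 were not detected.

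Junction genes were detected in 30 of 43 cases (69.8%, against 77.8% of all genes), and 3 were bright (6.98%, near the 7.79% of all genes). CLDN7 (954) and F11R (851) of tight junctions and CDH3 (831), the cadherin of basal cells, were bright. E-cadherin CDH1 (222), the desmosomal DSP (370.1), PKP3 (684), DSG2 (343), JUP (256) and DSG3 (199), and the claudins CLDN1 (419.6, its other probe not detected), CLDN3 (384), CLDN12 (377) and CLDN4 (211) were moderate. N-cadherin CDH2, a cadherin of mesenchymal and neural cells, was dim at 46.5, as was CLDN14 at 47.0 with another probe not detected. The endothelial CDH5, the stromal CDH11, the muscle CDH15, the intestinal CDH17 and the late desmosomal DSG1, DSC1 and DSG4 were not detected.

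Of 17 HLA genes and partners 12 were detected (70.6%, against 77.8% of all genes) and 2 were bright (11.8%, against 7.79%). B2M (10924), the light chain of class I, and HLA-F (3251) were bright, and HLA-E (659.6), HLA-G (542), MICB (653) and MICA (114) moderate. Class I genes are near-identical, so probes may read one another. Class II, used by antigen-presenting cells, was dim or not detected: HLA-DRA read 56.0 and HLA-DRB1 52.6, each with another probe not detected, HLA-DMA 44.4, HLA-DMB 43.7 and HLA-DOA 42.8, and HLA-DPA1, HLA-DPB1, HLA-DQA1, HLA-DQB1 and the class II activator CIITA were not detected. The class II chaperone CD74 read 85.6.

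Growth factors of the EGF, FGF, PDGF, VEGF and IGF families were detected in 40 of 54 cases (74.1%, against 77.8%), and 20 exceeded the olfactory limit (37.0%, against 48.8%). FGFBP1 (1853), a carrier of FGFs from squamous cells, GAS6 (1161), the ligand of AXL, and MDK (930.2) were bright. NRG1 (767), a ligand of ERBB3, VEGFB (278), VEGFC (241), FGF19 (201), VEGFA (185), HBEGF (178) and TGFA (115), both ligands of EGFR, PGF (141) and PDGFC (98.1) were moderate. EREG (91.6), EGF (90.1), PDGFA (90.7) and FGF2 (55.6) were dim, and so, with another probe not detected, were NRG3 (72.8), IGF2 (61.3), FGF7 (57.1) and FGF22 (54.5). HGF, the ligand of MET, BTC, VEGFD, ANGPT1, ANGPT2, ANGPTL4 and 8 FGFs were not detected.

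Among ligands and inhibitors of the TGF-beta, activin and BMP families 28 of 36 were detected (77.8%, the same as over all genes), and 9 exceeded the olfactory limit (25%, against 48.8%). FST (9667), follistatin, which binds activin, and FSTL1 (1848) were bright, and LEFTY1 was so on 1 probe (818) and not detected on the other (38.1). INHBA (452), the activin A chain, AMH (374), INHBC (199.9) and BMP2 (97.9) were moderate. TGFB1 (86.8), TGFB2 (55.0), TGFB3 (43.6), BMP4 (48.2), GDF15 (48.6), GDF11 (72.7) and CHRD (84.6), an inhibitor of BMPs, were dim, and BMP3, BMP6, BMP7, GREM1 and GDF9 were not detected.

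Cytokines were detected in 35 of 53 cases (66.0%, against 77.8%), with 17 above the olfactory limit (32.1%, against 48.8%). MIF (10925), IL1B (2131), IL24 (949.7) and IL18 (894), an epithelial alarm cytokine, were bright. IL1A (604), CSF2 (295), OSM (228), TNFSF10 (227), the IL1 receptor antagonist IL1RN (183), IL23A (110.2) and IL3 (99.2) were moderate. IL6 (72.4), TNF (75.9) and CD40LG (80.5, another probe not detected) were dim. So was the other probe of IL1RN, at 89.5. Cytokines known from lymphocytes were mixed. IL13 (84.5), LTA (68.7), LTB (61.5), IL5 (55.0), IL21 (53.0) and IL4 (45.4) were dim, IL13 above the olfactory limit, and IL2, IL9, IL10, IL17A, IL22 and IFNG were not detected. IL33, IL36A, IL36G and CSF1 were not detected either.

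Chemokines were detected in 26 of 39 cases (66.7%, against 77.8%), with 10 above the olfactory limit (25.6%, against 48.8%). CCL3 (974), known from myeloid cells, was the 1 bright member, and the neutrophil attractants CXCL8 (451), CXCL1 (246) and CXCL2 (233), CXCL16 (175), CCL15 (163) and CCL28 (106) were moderate. CCL20 (45.1), CXCL5 (44.7) and CXCL14 (57.6) were dim, as were CCL17 (90.7), CCL19 (87.5) and XCL1 (76.5), which exceeded the olfactory limit. The interferon-induced CXCL9, CXCL10 and CXCL11, the stromal CXCL12, and CCL2, CCL5, CXCL13 and CCL21 were not detected.

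Matrix glycoproteins were detected in 30 of 37 cases (81.1%, near the 77.8% of all genes), 6 of them bright (16.2%, against 7.79%). TGFBI, a cell adhesion protein of the matrix, read 5394 and 1348 on its 2 probes. SPARC (4545), LAMB3 (4082), a chain of the laminin that anchors basal cells, CCN1 (2034), AGRN (1621) and LAMA5 (1378) were bright too. LAMB1 (513), THBS1 (441), fibronectin FN1 (328), LAMC1 (252), CCN2 (207), MATN2 (274) and LAMA3 (126) were moderate, and tenascin TNC (72.1) was dim. Stromal matrix genes were mixed: DCN was moderate on 1 of 2 probes (168), VCAN (74.9), BGN (66.0), FBLN1 (63.1) and FBN1 (44.3) were dim, and LUM, POSTN and FBN2 were not detected. The vessel laminin LAMA4, the muscle laminin LAMA2, NID2 and HSPG2 were not detected. The dim laminins LAMA1 (73.9) and LAMB2 (69.7) and NID1 (41.5) each had a probe that was not detected.

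Of 36 collagens 24 were detected (66.7%, against 77.8%), 8 exceeded the olfactory limit (22.2%, against 48.8%) and none was bright. COL7A1 (246) of anchoring fibrils and COL17A1 (226) of hemidesmosomes, both of basal keratinocytes, were moderate, as were COL9A3 (248.8), COL18A1 (239), COL16A1 (199), COL4A6 (159.9), COL5A1 (154) and COL4A5 (99.2). COL15A1 (73.6), COL13A1 (67.1), COL4A4 (61.5) and COL22A1 (51.5) were dim, the last 2 with a probe not detected. Of the collagens known from fibroblasts, COL5A1 was in the moderate band above, COL12A1 (60.3), COL6A1 (47.4) and COL6A2 (44.4) were dim, and COL1A1, COL1A2, COL3A1, COL5A2, COL6A3 and COL14A1 were not detected.

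Matrix proteases were detected in 32 of 42 cases (76.2%, near the 77.8% of all genes), with 21 above the olfactory limit (50%, against 48.8%). PLAU, urokinase, was bright on both probes (8353 and 1517), MMP1, interstitial collagenase, on 1 of 2 (4425 and 48.9), and the cathepsin CTSV on its probe (921). CTSL (709), CTSB (642), TMPRSS4 (499.5; other probe 54.2), ADAM9 (434), MMP7 (317), MMP3 (296), ST14 (249.7), ADAM15 (217), KLK10 (187) and MMP10 (103) were moderate. The cathepsin CTSD read 448 and the plasminogen activator PLAT 192, each with another probe not detected (37.4 and 35.1). The membrane protease MMP14 (70.9), MMP2 (63.8) and MMP13 (47.0) were dim. MMP9, a gelatinase, MMP8, MMP15, MMP17, MMP19, ADAMTS4, ADAMTS5 and ADAMTS9 were not detected.

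Protease inhibitors were detected in 28 of 36 cases (77.8%, as over all genes), and 8 were bright (22.2%, against 7.79%). The cathepsin inhibitors CSTA (3589), CSTB (3462), CST3 (1308) and CST6 (969.6), the Kunitz inhibitor SPINT2 (3315), SERPINA1 (1079.8), SERPINB2 (1057), which inhibits urokinase, and TIMP1 (785) were the bright ones. SERPINB5 (648), maspin of squamous epithelium, SERPINB1 (547), the collagen chaperone SERPINH1 (592), SERPINB7 (394), TIMP2 (382), SPINT1 (255) and SLPI (148) were moderate. SERPINB3, PI3, TFPI, RECK, TIMP4, SERPING1, SPINK1 and SPINK6 were not detected. SERPINB4, a near-identical neighbour of SERPINB3, was dim at 47.8. SERPINC1 (48.7), antithrombin, and A2ML1 (43.3) were dim, each with another probe not detected.

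Wnt ligands and secreted inhibitors were detected in 26 of 33 cases (78.8%, near the 77.8% of all genes), and 11 exceeded the olfactory limit (33.3%, against 48.8%). The inhibitor DKK1 was bright at 3879, and DKK3, which the series set out to overexpress, was moderate at 539. WNT7A (553), WNT2 (319), WNT6 (276), SFRP5 (238), WNT3A (215), WNT10A (164), WNT3 (144) and WNT5B (117) were moderate. WNT7B read 101 on 1 probe and 37.1, not detected, on another, and RSPO2 was dim at 42.8 with another probe not detected. DKK2 (49.1), DKK4 (52.1) and WNT5A (45.5) were dim and below the olfactory limit. The other probe of SFRP5 was dim at 79.5. SFRP1, SFRP4, RSPO1, RSPO3, WNT8A, WNT8B and WNT9A were not detected.

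Genes of the cell cycle and of tumour suppression that are often altered in head and neck carcinoma were all detected, 30 of 30, and 26 exceeded the olfactory limit (86.7%, against 48.8%). CCND1 (6144), cyclin D1, its partner CDK4 (1949.8), NFE2L2 (1093) and HRAS (793) were bright. CTTN (485), FADD (454) and ANO1 (131; other probe 44.7), neighbours of CCND1, were moderate. CDKN2A (259) and CDKN2B (339.7), inhibitors of CDK4, and MTAP (549.9), their neighbour, were moderate too. The band also held CDKN1A (734), CDK6 (564), MDM2 (436), CUL3 (590) and KEAP1 (493), which hold NFE2L2 down, RB1 (248.7) and FAT1 (189). PIK3CA (50.6), TERT (59.0) and SOX2 (52.4) were dim and below the olfactory limit.

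As a reference for genes of distant organs, secreted products of liver and pancreas were detected in 12 of 28 cases (42.9%, against 77.8%), and 2 exceeded the olfactory limit (7.14%, against 48.8%). These were CLPS (180) and FGA (97.6). ALB, APOA1, APOB, TTR, TF, HP, GCG, SST, FGB and FGG were not detected, and INS lay just above the limit at 41.8. Others of the detected 12, such as F2 (74.3), prothrombin, CPB1 (69.0) and RBP4 (55.4, another probe not detected), were dim. Taken by role, 13.0% of 100 lineage genes, 17.2% of 134 surface genes, 7.92% of 366 secreted genes, 4.35% of 138 transcription factor genes and 1.38% of 290 receptor genes were bright, against 7.79% of all genes. The lineage role holds the keratins (9 bright), the late differentiation genes (0 bright) and the cell cycle and tumour suppressor genes (4 bright).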

How the data were processed

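The arrays were one-colour Toray oligonucleotide arrays of Cy5-labelled amplified RNA, per the labels' protocols. The authors deposited the scanner output of each array, and the median spot intensity of the untransfected array was used as given. With 1 array, no normalization between arrays was needed. No background was subtracted, and subtracting the scanner file's second brightness column is given below as an alternative. The scanning software and its settings are not given in the sources used here. The series also holds a deposited table of the authors' processed intensity values, which follows the scanner intensity along a line that reaches 0 at 36.0, with a median of 25 on this array. It lists 19503 gene probes, all 18002 detected ones among them, and its lowest listed spot reads 38.6.

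Rows for blanks, controls and empty positions were left out, as were 3 faulty spots among the 24460 gene probes. The limit was the mean plus 2 SD of the blanks not marked as faulty. Of the probes used, 20233 had 1 gene symbol and 4224 had none. The symbols come from the platform annotation, which can be old. Symbols were updated through RefSeq (GRCh38.p14): 17235 were current, 2899 were older names and 99 were kept as annotated. A gene takes its brightest probe and is not detected only if all its probes are not. Bands are the top 10% and the median of detected probes.

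The gene lists, the bands and the array itself were chosen with earlier results of these data known. Genes are named by rule: the 25 brightest, up to 10 of the brightest and up to 10 undetected members of each list, the cell type markers, and list genes whose probes disagree. Others named beside them, for their place in a pathway, were chosen after their values were seen. Alternatives changed the limit, the bands, the probe rule and the blocks used. The steps were run with Python 3.11.15, pandas 2.3.3, numpy 2.4.6 and matplotlib 3.10.9, and the detection step was tested on simulated data.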

Additional observations from a re-analysis of the deposited data

Results flagged for a closer look

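Gene probes without a gene name entered no gene count and no gene list above. They are part of the counts over all gene probes and of the cut-offs of the bands. Their signal exceeded that of the blank spots, which is what drew attention to them. Of 4224 such probes 2679 (63.4%) exceeded the detection limit, against 5.27% of the blanks. That share was lower than the 73.6% of all gene probes and the 75.7% of probes with 1 symbol. The olfactory limit was exceeded by 1171 of them (27.7%), and by 10614 of all 24457 gene probes. Of the probes without a name 319 (7.55%) were bright, and of all 24457 gene probes 1801 were. Of the 100 brightest gene probes of the array 32 had no name, the brightest of them at 31914. Their genes are not named here.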

How the results depend on the processing

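Detection depended on where background ends. The 18002 detected gene probes and 770 detected list members became 10614 and 414 with the olfactory limit, and 6390 and 317 when the scanner file's second brightness column was subtracted first. That column is headed as a background median, and the sources used here do not say how it was measured. Over the gene probes its log2 values followed those of the spot intensity with a Pearson correlation of 0.997. Subtracting it removed most of the calls, and what it measures was not tested. The first change follows from the higher limit, and for the second the cause was not tested. Counts moved by less than 1.5 times under the other limits: 16828 and 725 with 3 SD, 19924 and 869 with the median and MAD, 18346 and 789 with each block's own blanks, 19503 and 843 for the authors' list, and 15729 and 670 without blocks 22 to 24. With limits chosen after seeing the data they were 18659 and 807 (negative controls) and 17896 and 764 (faulty blanks kept). Requiring all probes of a gene left 724 members. The 1801 bright probes became 901 at the top 5% and 3601 at the top 20%, and the 74 bright list members became 41 and 136. Of the 31 lists, 28 moved by over 1.5 times under the olfactory limit, 30 under the subtraction, and 1 (Toll-like receptors, from 6 to 3) without blocks 22 to 24. With single-probe genes alone, the lowest and highest of the 5 CpG classes were detected at 54.2% and 89.95%. No paired analysis was possible because each group is 1 array. One array of 1 culture gives no spread, and cross-reaction between near-identical genes was not tested.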
